A study of Mus musculus with 16 samples.

Results

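Disease-associated microglia genes were examined in the mouse corpus callosum during CPZ-induced demyelination and after the return to regular diet. The corpus callosum is the large white matter tract between the hemispheres. Its myelin was damaged by feeding CPZ (cuprizone), a compound that binds copper and is toxic to the cells that make myelin. The members were 8 genes listed by name, Cst7, Itgax, Clec7a, Spp1, Gpnmb, Lgals3, Ch25h and Cd52. Of these, 7 had a probe that carried their name on the array, with 8 probes in all of the 41174 probes, and the array held 18749 named genes. No probe accession matched Clec7a in the gene table, so Clec7a was not analysed here. Probes whose accession matched no gene were not searched further, and a probe of Clec7a may be among them. On GRCm38.p6 the genes lie apart in the genome: Cst7 at chr2:150570415-150578944, Itgax at chr7:128129526-128150657, Spp1 at chr5:104435111-104441053, Gpnmb at chr6:49036518-49058182, Lgals3 at chr14:47373860-47386167, Ch25h at chr19:34473783-34475148 and Cd52 at chr4:134093538-134095073.

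Microglia are the resident macrophages of the brain. Near damaged myelin, dying cells or protein deposits they lower genes of their resting state and raise a common set of genes for lipid handling, lysosomal digestion, adhesion and secretion, for which the lipid-sensing receptor Trem2 and its adaptor Tyrobp are needed. Microglia with this profile are called disease-associated, and myelin debris taken up by phagocytosis is one of the loads they are known to process. The members cover several roles in this programme. Itgax (the integrin CD11c), Clec7a (the beta-glucan receptor dectin-1), Gpnmb (a transmembrane glycoprotein) and Cd52 (a small anchored glycoprotein of leukocytes) act in membranes. Spp1 (osteopontin) and Lgals3 (the sugar-binding lectin galectin-3) are secreted, Cst7 (cystatin F) inhibits lysosomal cysteine proteases, and Ch25h is the enzyme that makes 25-hydroxycholesterol.

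All mice were male C57BL/6 of wild type, aged 7 to 8 weeks, and every array measured total RNA from the dissected corpus callosum. The untreated group (3 arrays) ate normal chow and was matched in age to the mice with 4 weeks of CPZ. The other groups were 2 weeks of CPZ (3 arrays), 4 weeks of CPZ (4 arrays) and 4 weeks of CPZ followed by regular diet (6 arrays), with 0.2% CPZ in the chow by the methods and 0.2 to 0.4% by the sample labels. The methods give 2 days and 14 days of regular diet, and the labels do not tell these times apart, so the spread of the regular diet group holds both. The study used 3 to 6 mice per condition. A figure of the paper gives n = 3 at 2 weeks of CPZ, n = 4 at 4 weeks and n = 3 at each time of regular diet. For the CPZ groups these numbers equal the arrays here. Neither that figure nor the labels say whether each array held RNA of a separate mouse. The p-values therefore measure the spread between these arrays, which may be technical. In bulk tissue, a change in the number of microglia and a change in RNA per microglial cell cannot be told apart.

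Scanner files and deposited values did not name the same samples. Every one of the 16 value columns had a single scanner file with r of 0.997 or more across probes (0.774 or less for the runner-up). That file carried a different sample name for 14 columns and a different group for 13. The value columns decided each array's sample here, and under the names of the scanner files 0 genes of any kind, members included, were called in any comparison. The arrays lay on 4 slides of 4 arrays, and 57.3 to 72.2% of probes on an array were well above background. All 11 measured myelin and oligodendrocyte markers and all 12 homeostatic microglia markers were well above background on each untreated array. So were 8 of 8 neuron markers and 4 or 5 of 5 choroid plexus markers. Detection alone therefore cannot decide whether the tissue was corpus callosum only.

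The stretches of sequence around the start sites of 4 members are shown first because they carry the short motifs searched for in the promoters of this gene set. Each is 145 bases long and ends at base 20 of the annotated transcript, 5′ to 3′ on the gene's strand, as RefSeq gives them on GRCm38.p6. Capitals mark the motif found. In Cst7 (chr2:150570290-150570434, + strand), Gpnmb (chr6:49036393-49036537, + strand) and Itgax (chr7:128129425-128129569, + strand) it is the AP-1 motif TGANTCA, which Fos and Jun proteins bind. In Spp1 (chr5:104434986-104435130, + strand) it is GAGGAA, the core bound by PU.1, a factor that myeloid cells depend on.
Cst7: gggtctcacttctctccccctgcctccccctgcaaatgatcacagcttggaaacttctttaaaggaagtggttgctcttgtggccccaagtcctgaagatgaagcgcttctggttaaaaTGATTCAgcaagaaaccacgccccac
Itgax: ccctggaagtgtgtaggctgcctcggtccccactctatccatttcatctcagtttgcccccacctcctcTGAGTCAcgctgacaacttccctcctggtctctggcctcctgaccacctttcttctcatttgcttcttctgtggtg
Gpnmb: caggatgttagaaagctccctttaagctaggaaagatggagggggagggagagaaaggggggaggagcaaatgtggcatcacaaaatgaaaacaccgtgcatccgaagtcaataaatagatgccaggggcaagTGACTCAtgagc
Spp1: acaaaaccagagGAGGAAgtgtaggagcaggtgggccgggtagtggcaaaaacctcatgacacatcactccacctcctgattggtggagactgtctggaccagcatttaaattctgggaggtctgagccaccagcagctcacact

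The promoter table held 9 windows for 7 members and listed none for Cd52. Each window was 300 bases long and ended at base 50 of the transcript, and both strands were searched. The AP-1 motif stood in a window of 3 members, against 7.81% of all 32851 windows. It began 56 bases before the start in Itgax, 6 bases before it in Cst7 and at base 9 of the transcript in Gpnmb. The GAGGAA core stood in windows of 2 members, Spp1 and Clec7a, against 28.3% of all windows. The E-box CACGTG, a motif of lysosomal gene promoters, was in no member's window, against 7.15% of all windows. These matches describe letters in a window only, and TGANTCA and GAGGAA do not overlap in the stretches shown.

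Values on each array are given first as the authors' deposited log2 values, in which each probe is set relative to the median of the 3 untreated arrays. The untreated array in the middle therefore stands at 0 for each probe. Group differences come from limma on the scanner signal, each array scaled to its own 75th percentile, and a gene was called when its Benjamini-Hochberg adjusted p over all tested probes was under 0.05 and the change at least 2-fold. For the members' probes, the deposited values and those computed from the scanner signal differed by at most 0.0130 on the log2 scale.

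Untreated tissue lay at or near the array's background for several members. For Cst7, 0 of 3 untreated arrays were well above background, with signals of 6.14 to 10.99 units. For Itgax and for Gpnmb, 2 of 3 untreated arrays were, with signals of 7.04 to 15.6 and 6.86 to 16.6 units. Untreated array 2 was the one at background for both genes. Spp1, Lgals3, Ch25h and Cd52 were well above background on 3 of 3 untreated arrays, and the 7 members' main probes were on each of the 13 arrays of the other groups. The second Gpnmb probe was on none of the 16 arrays well above background, with signals of 1.86 to 2.76 units, and was not tested.

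**Figure D1:**
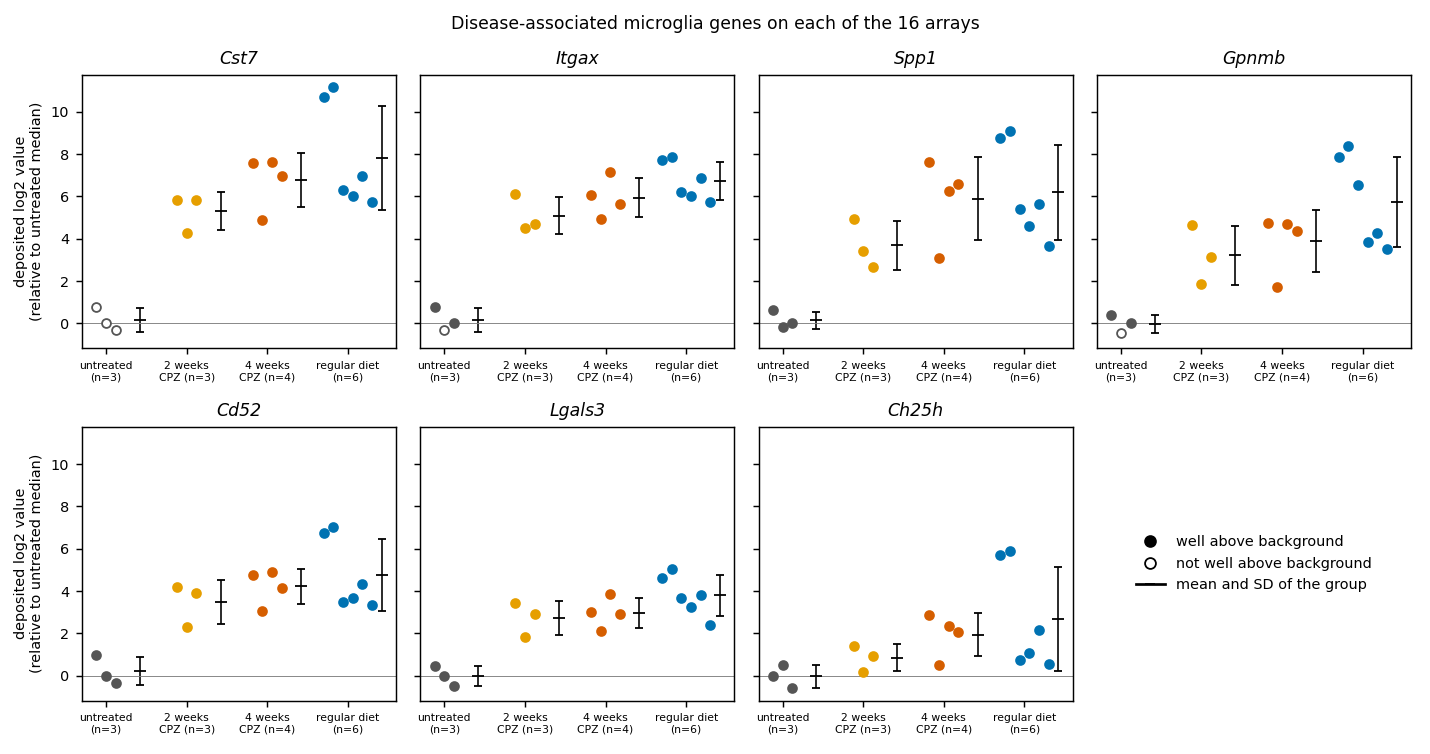
Deposited log2 value (vertical axis, relative to the median of the untreated arrays) of the 7 members with a probe, on each of the 16 arrays by group, with open points for arrays not well above background and the group mean with its SD in black. The regular diet arrays 1 and 2 were the highest of all 16 arrays in each panel, and 4 weeks array 2 was the lowest of its group in each panel.

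Cst7, the protease inhibitor, was not well above background in untreated tissue and bright in the other groups. Its deposited values were 0.77, 0 and −0.32 on the untreated arrays and 5.83, 4.25 and 5.82 at 2 weeks of CPZ. They were 7.58, 4.89, 7.61 and 6.97 at 4 weeks, and on regular diet the lowest was 5.75, the median 6.64 and the highest 11.18. No CPZ or regular diet array overlapped with the untreated arrays. Since untreated tissue was at background, only bounds of the fold between group means can be given. They were at least 31.6-fold higher at 2 weeks, at least 87.1-fold at 4 weeks and at least 181-fold on regular diet. These bounds leave out the spread between arrays, and single arrays can lie below them. On regular diet arrays 1 and 2 (10.68 and 11.18) raised the mean, against 5.75 to 6.98 on the other 4. Against the dim untreated signals the log2 difference there was 7.67, and 6.99 to 8.08 with 1 array left out. Limma's adjusted p was 0.0386, 0.0196 and 0.00667.

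Itgax, the CD11c integrin, was called in each comparison with untreated. It had deposited values of 0.77, −0.31 and 0 on the untreated arrays and of 6.09, 4.50 and 4.70 at 2 weeks. At 4 weeks the values were 6.06, 4.95, 7.14 and 5.64, and on regular diet they ran from 5.72 over a median of 6.55 to 7.88. Each of these 13 arrays was above each untreated array. The log2 difference from untreated was 4.94 at 2 weeks (standard error 0.60, limma adjusted p = 0.0301). At 4 weeks, Itgax stood 5.79 above untreated, with an adjusted p of 0.0196 and a standard error of 0.56. The regular diet value was 6.59, with an adjusted p of 0.000264 and a standard error of 0.56. One of the untreated signals behind these differences was at background.

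Cd52, the leukocyte surface glycoprotein, was called at 4 weeks and on regular diet. The 4-week call held in 8 of 14 other settings and in 2 of 10 fits with 1 array left out. Quantile normalization and dropping the filter on dim probes were among the settings that lost it. The untreated arrays had deposited values of 0.96, 0 and −0.34, and the arrays of 2 weeks of CPZ had 4.21, 2.29 and 3.93. At 4 weeks they were 4.78, 3.06, 4.89 and 4.14, and on regular diet the lowest was 3.32, the median 4.00 and the highest 7.05. The groups did not overlap with untreated at either CPZ time. The log2 difference was 3.27 at 2 weeks and was not called (adjusted p = 0.0792), while against untreated Cd52 rose by 4.01 at 4 weeks of CPZ, with an adjusted p of 0.0467 and a standard error of 0.59. On regular diet it rose by 4.56, with an adjusted p of 0.0185 and a standard error of 0.83. The log2 difference between 4 and 2 weeks was 0.74 with a 95% interval of −0.58 to 2.07. The change of call from 2 to 4 weeks therefore does not show a difference between the times. The interval excludes neither a rise nor a fall.

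Spp1, which encodes the secreted glycoprotein osteopontin, varied most between arrays at 4 weeks. Its deposited values were 0.61, −0.18 and 0 in untreated tissue and 4.95, 3.41 and 2.67 at 2 weeks. At 4 weeks array 1 stood at 7.63 and array 2 at 3.10, with arrays 3 and 4 at 6.27 and 6.60, an SD of 1.96 (n = 4). On regular diet the values ran from 3.64 over a median of 5.53 to 9.11. All CPZ and regular diet arrays were above the untreated arrays. The log2 difference was 3.53 at 2 weeks (adjusted p = 0.218) and 5.75 at the later time (adjusted p = 0.0628, standard error 0.97), neither of which was called, and Spp1 rose by 6.05 on regular diet (standard error 1.18, adjusted p = 0.0266).

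Gpnmb, a transmembrane glycoprotein of lipid-laden macrophages, had deposited values of 0.38, −0.48 and 0 in untreated tissue and of 4.66, 1.86 and 3.13 at 2 weeks. At 4 weeks arrays 1, 3 and 4 lay close together at 4.76, 4.71 and 4.36, and array 2 lay apart at 1.74. On regular diet the lowest value was 3.51, the median 5.41 and the highest 8.39. The groups did not overlap with untreated. The log2 difference was 3.25 at 2 weeks (adjusted p = 0.181) and 3.92 at the later time (adjusted p = 0.100), neither called, and Gpnmb rose by 5.77 on regular diet (standard error 1.09, adjusted p = 0.0221). One untreated array was at background here too.

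Lgals3, the gene of the lectin galectin-3, had a narrower range. Its deposited values were 0.46, 0 and −0.50 in untreated tissue, 3.42, 1.82 and 2.89 at 2 weeks and 3.03, 2.12, 3.85 and 2.91 at 4 weeks. On regular diet they ran from 2.39 over a median of 3.75 to 5.06. No array of these groups overlapped with the untreated arrays. The log2 difference was 2.72 at 2 weeks (adjusted p = 0.0736) and 2.99 at the later time (adjusted p = 0.0581), neither called, and Lgals3 rose by 3.81 on regular diet (standard error 0.53, adjusted p = 0.00497).

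Ch25h, the sterol hydroxylase, was the one member that was not called in any comparison. Its deposited values were 0, 0.50 and −0.59 in untreated tissue and 1.42, 0.16 and 0.95 at 2 weeks, so these groups overlapped. At 4 weeks they were 2.87, 0.48, 2.33 and 2.08, with array 2 inside the untreated range. On regular diet arrays 1 and 2 stood at 5.70 and 5.88, and the other 4 arrays stood at 0.76, 1.07, 2.17 and 0.55, all above the untreated arrays. The log2 difference was 0.87 at 2 weeks (95% interval −0.47 to 2.21), 1.97 at 4 weeks (0.72 to 3.22) and 2.72 on regular diet (0.34 to 5.09), with adjusted p of 0.842, 0.202 and 0.401. Without regular diet arrays 1 and 2, the last of these differences was 1.17.

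At 2 weeks of CPZ, 2 of 7 members were called higher, Itgax and Cst7, and 0 lower, where 0.211% of the 20404 genes tested were called in either direction, 0.0784% higher and 0.132% lower. At 4 weeks, 3 of 7 members were called higher, Itgax, Cst7 and Cd52, against 0.167% of genes called in either direction, 0.0980% higher and 0.0686% lower. An unadjusted limma p under 0.05 with a higher value was found for 6 of 7 members at 2 weeks (4.50% of all genes) and 7 of 7 at 4 weeks (5.19%). Each array of the group was above each untreated array for 6 of 7 members at 2 weeks, where 8.16% of all genes did so, and for 6 of 7 at 4 weeks, against 5.31%. Ch25h was the exception at both times. The median log2 difference over the 7 members was 3.27 at 2 weeks and 4.01 at 4 weeks, and over all genes tested it was 0.05 and −0.04.

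**Figure D2:**
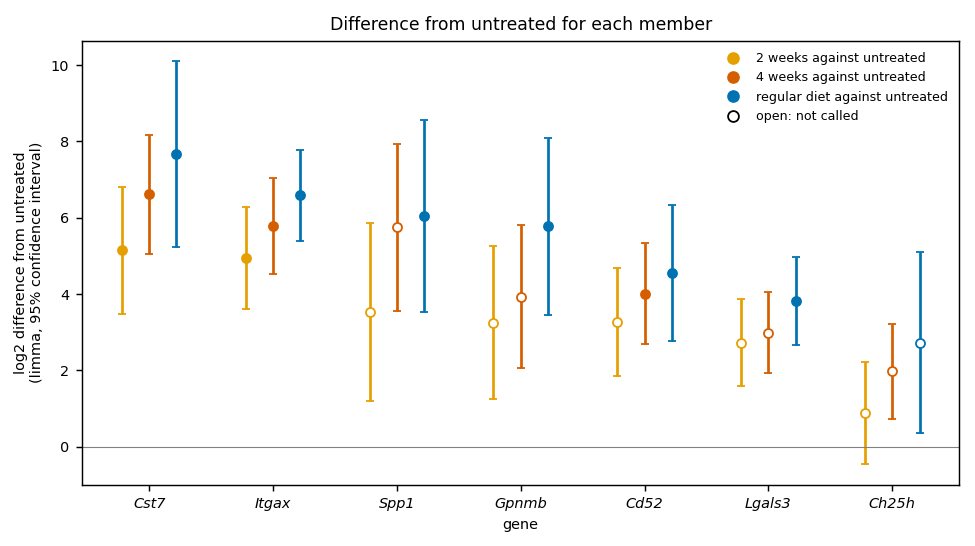
Log2 difference from the untreated arrays (vertical axis) with its 95% confidence interval from limma for each of the 7 members at 2 weeks of CPZ, 4 weeks of CPZ and on regular diet, with filled points where the gene was called. Cst7 and Itgax were called in each of the 3 comparisons and Ch25h in none. The untreated arrays are shared by the 3 comparisons, and for Cst7 they were at background, so its plotted values and intervals are no measured fold.

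These counts leaned on single arrays. At 2 weeks, 0 members were called when any of the untreated arrays 1, 2 and 3, the 2-week arrays 1 and 3 or the 4-week array 4 was left out, and in those fits 7 to 12 genes were called in all, against 43 with every array. At 4 weeks, 7 of 7 members were called without 4-week array 2, where 147 genes were called in all against 34 with every array. At that time 0 members were called without untreated array 2 or 3 (4 and 1 genes in all), or without 2-week array 3 or 4-week array 1, 3 or 4 (0 genes in all). With the slide as a fixed block, 4 members were called at 2 weeks, among 93 genes in all, and 5 at 4 weeks, among 393. Within slides few arrays could be compared. The log2 difference from untreated was positive for 7 of 7 members at 2 weeks, on the 1 slide that held both groups. At 4 weeks it was positive for 14 of 14 values on 2 slides. These signs are given without a share over all genes. Each of these slides held 1 untreated array, and the members varied together, so the signs are not separate tests. Leaving aside Cst7, whose untreated signals were at background, the differences at 2 and 4 weeks were 1.18 to 4.63 and 1.84 to 7.63. On slide 2 the untreated array was array 2, at background for Itgax and Gpnmb. Their 4-week differences on that slide, 7.45 and 5.19, are therefore no measured fold either.

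Between 2 and 4 weeks of CPZ, 0 of 7 members were called, where 0.0147% of genes were called in either direction and 0 genes higher, and 1 member, Spp1, had an unadjusted limma p under 0.05 with a higher value (4.92% of genes). The methods' own test also called 0 members, among 10 genes in all. The count over all genes, 3 here, was 49 (8 higher) without untreated array 1 and 55 (17 higher) with the regular diet arrays in the fit, with 0 members in both. All 7 log2 differences were above 0, from 0.26 for Lgals3 to 2.22 for Spp1, and the groups overlapped for 7 of 7 members, where 5.82% of genes lay apart and higher. The 95% interval for Spp1 was 0.03 to 4.40, and for Cst7, with a difference of 1.46, it was −0.09 to 3.02. The intervals of Itgax (−0.41 to 2.11), Ch25h (−0.15 to 2.35), Gpnmb (−1.20 to 2.55) and Lgals3 (−0.81 to 1.34) allow both a rise and a fall. For Lgals3 the sign turned without 2-week array 2 (−0.18) or without 4-week array 3 (−0.03).

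On regular diet after CPZ, 6 of 7 members were called higher than untreated, all but Ch25h, where 0.854% of the 20608 genes tested were called and all of those were higher. The median log2 difference over the members was 5.77, against −0.01 over all genes. All 7 members had an unadjusted limma p under 0.05 with a higher value, against 6.28% of genes. Each regular diet array was above each untreated array for 7 of 7 members, against 5.06% of all genes. On the 3 slides that held both groups, 21 of 21 differences were positive, stated without a share over all genes. The differences of the members other than Cst7 were 1.06 to 7.30. For Itgax and Gpnmb the untreated array of slide 2 was at background. The count was 4 without untreated array 1, 3 without untreated array 2, 1 (Itgax) without untreated array 3 and 5 without regular diet array 1, and in these fits 88, 52, 4 and 104 genes were called in all, against 176 with every array.

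Against 4 weeks of CPZ, 0 of 7 members were called on regular diet by limma, where 0.00485% of genes were called, and 0 members had an unadjusted p under 0.05, against 15.5% of genes with such a p and a higher value. The methods' test called 0 as well, among 3 genes in all. The count over all genes, 1 here, was 1435 without 4-week array 1, 1219 without untreated array 1 and 217 without 4-week array 3, with 0 members in each. The log2 differences ran from 0.30 for Spp1 (95% interval −2.005 to 2.60) to 1.85 for Gpnmb (−0.27 to 3.97), and the groups overlapped for 7 of 7 members, where 4.97% of genes lay apart and higher. The group means stood in the same order for all 7 members, untreated, 2 weeks, 4 weeks and regular diet. That order is given without a share over all genes. Of the steps between neighbours in that order, only those of Itgax and Cst7 from untreated to 2 weeks passed the test. Within slides, 16 of 21 differences from 4 weeks were positive (−0.52 to 3.48), also without a share over all genes.

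The regular diet arrays numbered 1 and 2 stood apart. They were the 2 highest of the 16 arrays for 7 of 7 members, where 9.67% of all genes had these arrays on top. For Cst7 they stood at 10.68 and 11.18, and the other 4 arrays at 6.30, 6.02, 6.98 and 5.75. For Cd52 they stood at 6.75 and 7.05 against 3.47, 3.69, 4.32 and 3.32, and for Spp1 at 8.76 and 9.11 against 5.40, 4.61, 5.66 and 3.64. Gpnmb differed in that array 3, at 6.53, lay between arrays 1 and 2 (7.88 and 8.39) and arrays 4, 5 and 6 (3.83, 4.29 and 3.51). The labels do not say how long these mice had eaten regular diet. Without both arrays, 6 members were called against untreated, among 164 of 21134 genes in all, and the log2 difference from 4 weeks turned below 0 for Cd52 (−0.52), Spp1 (−1.07), Cst7 (−0.50) and Ch25h (−0.80).

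Markers of microglia in general moved with the members on these arrays. The mean log2 level over 11 general microglia and macrophage markers, among them Ptprc (CD45), Aif1 and the C1q genes, was 4.27 and 4.63 above the untreated mean on regular diet arrays 1 and 2, and 1.31 to 1.69 on the other 4. It was 0.35 to 1.58 at 2 weeks and 0.91 to 2.38 at 4 weeks. Of these markers 10 or 11 were well above background on every array, and their summed signal over the array's 75th percentile was 32.2 to 71.4 in untreated tissue, 61.0 to 146 at 2 weeks, 96.1 to 257 at 4 weeks and 117 to 1034 on regular diet. Homeostatic microglia markers, which include P2ry12 and Tmem119 and mark resting microglia, were 3.00 and 3.25 above untreated on regular diet arrays 1 and 2 and 0.38 to 0.66 on the other 4. They were −0.36 to 0.65 at 2 weeks and 0.58 to 1.08 at 4 weeks, with 12 of 12 well above background throughout. In the fits, 0 of 12 homeostatic markers were called at 2 weeks (median log2 difference 0.12), 1 of 12 at 4 weeks (Fcrls, 2.24, adjusted p = 0.0467; median over the 12 markers 0.74) and 0 on regular diet (median 1.57), where 0.211%, 0.167% and 0.854% of all genes were called. P2ry12 stood at −0.60 and Tmem119 at −0.24 at 2 weeks, neither called.

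**Figure D3:**
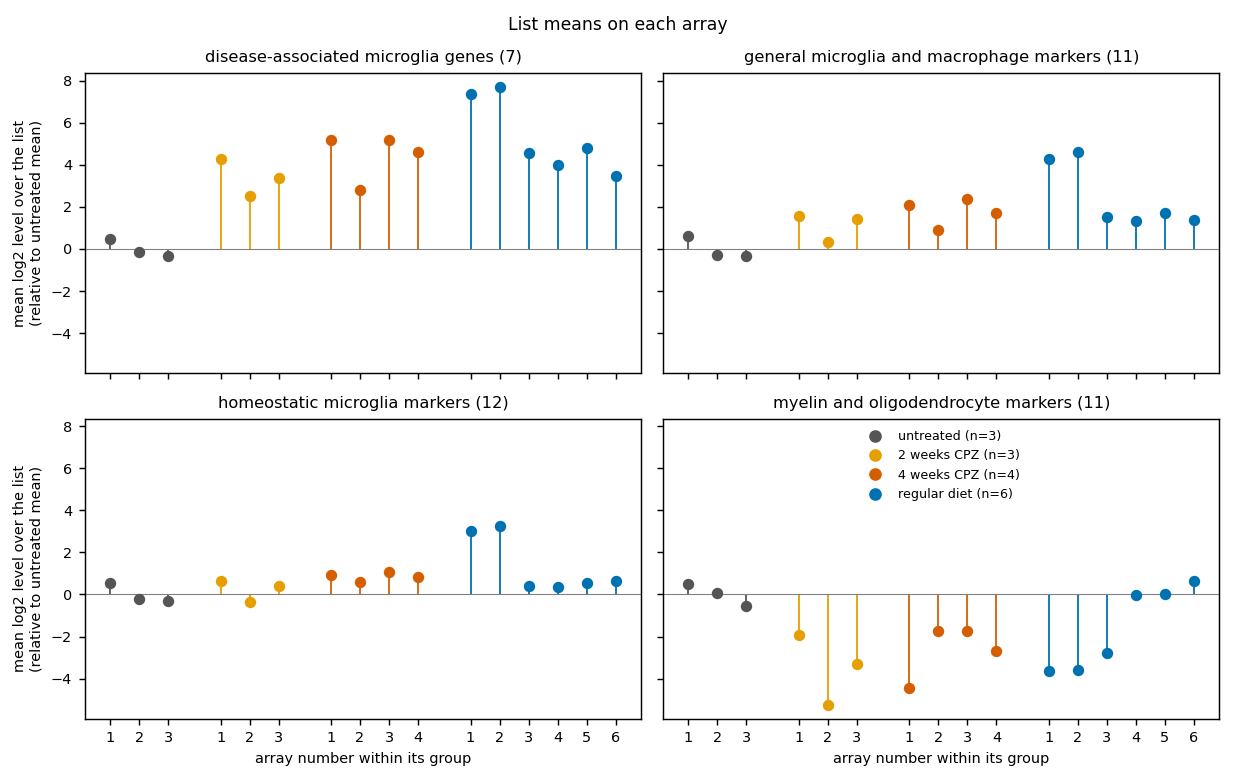
Mean log2 level over each list (vertical axis, relative to the mean of the untreated arrays) on each of the 16 arrays, numbered within their groups, for the 7 members, 11 general microglia and macrophage markers, 12 homeostatic microglia markers and 11 myelin and oligodendrocyte markers. Regular diet arrays 1 and 2 were highest for all 3 microglial lists, and on regular diet arrays 4 to 6 the myelin markers were near the untreated mean while the members stood 3.47 to 4.79 above it. The member means include Cst7, whose untreated signals were at background, and Itgax and Gpnmb, for which untreated array 2 was.

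Set against the general markers, most members were still higher. After the mean of the general markers on the same array was subtracted, 6 of 7 members were above each untreated array on all 13 CPZ and regular diet arrays, all but Ch25h. Of all genes tested, 0.946% were so at 2 weeks, 0.363% at 4 weeks and 0.340% on regular diet. For Cst7 the untreated signals in this comparison were not well above background, and for Itgax and Gpnmb untreated array 2 was not. Cd52 lay 1.73 to 2.42 above untreated at 2 weeks, 1.94 to 2.49 at 4 weeks and 1.72 to 2.42 on regular diet. Itgax and Lgals3 had their lowest regular diet values on arrays 1 and 2, at 3.29 and 3.10 for Itgax against 4.18 to 5.04 on the other 4, and at 0.38 and 0.44 for Lgals3 against 1.01 to 2.18. Spp1 went the other way, at 4.33 on both arrays against 2.11 to 3.82 on the other 4, and Cst7 and Ch25h were also highest on arrays 1 and 2. Ch25h was −0.44 to −0.14 at 2 weeks and −0.41 to 0.82 at 4 weeks, within or close to its untreated range of −0.58 to 0.81. On regular diet it was −0.80 to 1.46, with arrays 1 and 2 (1.46 and 1.28) above the untreated arrays and the other 4 within or below their range. In limma with this scaling, chosen after seeing the data, 3 members were called at 2 weeks, 6 at 4 weeks and 5 on regular diet. Under it the median of all genes shifted to −1.07, −1.82 and −2.48, and 251, 17368 and 16672 genes were called in all, of which 16, 48 and 38 were higher.

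Myelin markers were low on some regular diet arrays and near the untreated level on others. The mean over 11 myelin and oligodendrocyte markers was −1.92, −5.25 and −3.32 at 2 weeks, −4.43, −1.74, −1.74 and −2.69 at 4 weeks, and −3.64, −3.59, −2.79, −0.04, 0.02 and 0.62 on regular diet arrays 1 to 6, relative to untreated values of −0.57 to 0.48. On regular diet arrays 1, 2 and 3, where the myelin markers were low, the mean over the members was 7.36, 7.70 and 4.54. On arrays 4, 5 and 6, where the myelin markers were within or just above the untreated range, the mean over the members was 3.98, 4.79 and 3.47. The untreated arrays had member means of −0.33 to 0.48. These means include Cst7, whose untreated signals were at background, and Itgax and Gpnmb, for which untreated array 2 was. The means are therefore levels on the array's scale and no measured fold. At 2 weeks array 2 had the lowest myelin mean and also the lowest member mean of its group, 2.53 against 4.28 and 3.36.

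The 4-week array 2 was the lowest of its group for 7 of 7 members, where 23.7% of all genes had it lowest, and regular diet array 6 was the lowest of its group for 7 of 7, against 17.7% of all genes. On 4-week array 2 the general microglia markers stood at 0.91, against 1.72 to 2.38 on the other 4-week arrays. On regular diet array 6 they stood at 1.39, within the 1.31 to 1.69 of arrays 3 to 5.

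Markers of other cells in the tissue were also read. Of 8 monocyte and neutrophil markers 1 to 4 were well above background on any array, their mean ran from −0.71 to 0.85, and their summed signal was 8.23 to 14.02 in untreated tissue, 15.1 to 17.3 at 2 weeks, 9.04 to 14.9 at 4 weeks and 6.47 to 10.96 on regular diet. Each 2-week array was above each untreated array in that sum. Of 8 lymphocyte markers 3 to 8 were well above background, with a mean of −0.25 to 0.12 in untreated tissue and 0.16 to 1.20 on the other arrays. Border-associated macrophage markers stood at 2.45 on 2-week array 1 and between −0.72 and 0.85 on all other arrays. Their summed signal was 1.15 to 1.95 in untreated tissue, 1.67 to 5.87 at 2 weeks and 1.93 to 3.61 at 4 weeks, and it was 10.8 and 15.3 on regular diet arrays 1 and 2 against 1.83 to 3.21 on the other 4, with 4 of 8 markers well above background on arrays 1 and 2. Choroid plexus markers, a sign of how the tissue was cut, ran from −2.29 to 3.46 and lay at −2.29 and −1.02 on regular diet arrays 1 and 2. Astrocyte markers, with 8 of 8 well above background throughout, stood at −0.30 to 0.44 in untreated tissue, 0.20 to 1.29 at 2 weeks, 0.48 to 1.53 at 4 weeks and 0.75 to 1.07 on regular diet, where 1 of 8, Serpina3n, was called (2.62, adjusted p = 0.0166). Neuron markers ran from −0.39 to 0.36 in untreated tissue and from −1.12 to 0.61 on the other arrays, and red blood cell markers from −0.24 to 0.39 and from −1.18 to 1.30. The part of these cells in the members' values was not tested.

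The rest of the disease-associated programme was followed through 28 further genes, of which 26 were on the array. At 2 weeks, 2 of 25 tested were called higher (0.0784% of all genes) and 0 lower, with a median log2 difference of 0.92. At 4 weeks, 3 of 25 were called higher (0.0980% of all genes) and 0 lower, with a median of 1.19. On regular diet, 6 of 26 were called higher (0.854% of all genes) and 0 lower, with a median of 2.07. The list's medians lay below those of the members at each time.

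Of this list, the chemokine genes Ccl3 and Ccl4 had the largest differences. Ccl4, a chemokine that attracts leukocytes, rose by 5.55 at 2 weeks, 5.28 at 4 weeks and 6.03 on regular diet on the log2 scale, with adjusted p of 0.0203, 0.0196 and 0.00497, and 2 of 3 untreated arrays were well above background for it. Ccl3, a related chemokine, was not well above background on any untreated array. Its group mean was at least 25.1-fold higher at 2 weeks, at least 34.6-fold at 4 weeks and at least 62.6-fold on regular diet (adjusted p = 0.0326, 0.0293 and 0.00549). Ccl6, another chemokine of myeloid cells, rose by 3.69 at 4 weeks (adjusted p = 0.0467) and by 3.87 on regular diet (adjusted p = 0.0460), and stood at 2.52 at 2 weeks, where it was not called.

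On regular diet the other called genes were Lyz2, the lysozyme gene of myeloid cells (log2 difference 4.31, adjusted p = 0.00497), B2m, the light chain of MHC class I (2.60, adjusted p = 0.0293), and Lilrb4a, an inhibitory receptor of myeloid cells. Lilrb4a was not well above background on any untreated array, and its group mean was at least 5.26-fold higher on regular diet (adjusted p = 0.0293). Lilrb4a has a close copy in the genome whose transcript its probe may share. The receptor gene Trem2 stood at 1.51, 2.40 and 2.97 above untreated in the 3 comparisons and its adaptor Tyrobp at 1.83, 2.42 and 3.24, and neither was called. Apoe, the lipid carrier, stood at 0.45, 1.19 and 1.35, Lpl, the lipoprotein lipase, at 1.42, 2.50 and 2.91, and the growth factor gene Igf1 at 1.72, 2.82 and 3.48, without a call. At the low end at 4 weeks were Fth1 (ferritin heavy chain, −0.57), Ank (−0.17) and Csf1 (a growth factor of macrophages, 0.15), none called.

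**Figure D4:**
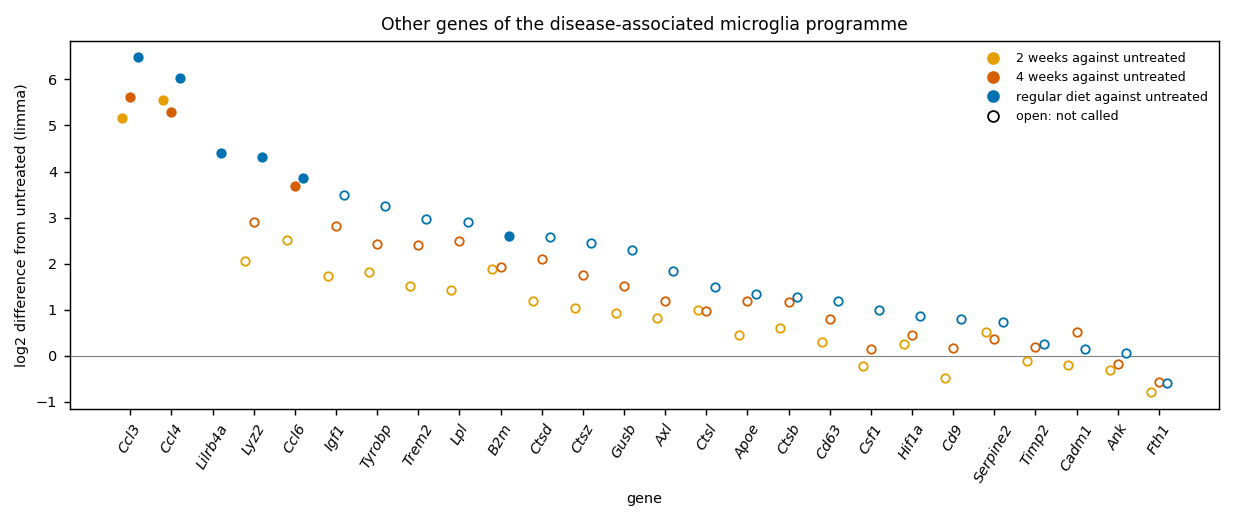
Log2 difference from untreated (vertical axis) for the 26 further genes of the programme on the array, ordered by their difference on regular diet, with filled points where a gene was called. Ccl3 and Ccl4 were called in each comparison shown and stood above 5 in each, and Fth1 lay below 0 in each. Lilrb4a was tested in the regular diet comparison only, and for Ccl3 and Lilrb4a the untreated arrays were at background, so their plotted values are no measured fold.

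The members varied together over the 16 arrays, as a description with shared arrays and scaling. Pearson's r over arrays for the 21 pairs had a median of 0.936, was highest for Cst7 and Cd52 (0.991) and lowest for Itgax and Ch25h (0.685). Over the 10 arrays without the regular diet group, the 21 values ran from 0.774 to 0.988. The named genes whose pattern over 16 arrays was most like the members' mean were Bcl2a1b and Bcl2a1c (r of 0.987 each), Cd22 (0.985), Lilrb4a (0.984), Ccl6 (0.983), Cd48 (0.982), Tmem106a (0.981), Ptprc (0.981), Apobec1 (0.980) and Arl11 (0.979). Bcl2a1b and Bcl2a1c are near-identical copies, and their probes may not tell them apart. Of 20601 genes compared, 254 had an r over 0.9, of which 221 had a name, and the median over all genes was −0.03.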

How the data were processed

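For 16 single-colour Agilent arrays the authors deposited spot intensity, background-subtracted by Feature Extraction (version 11.0.1.1 per the labels), together with flags for spots well above background. A value table, also deposited, holds the authors' log2 values, set to the 75th percentile and relative to the untreated median in GeneSpring. The unit of fold used here is 2 to the power of a log2 difference. Genes were named by matching each probe's accession to a RefSeq gene table on GRCm38.p6, and 27479 of 41174 probes (66.7%) matched. Promoter windows came from RefSeq on the same build and were matched by symbol.

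Outlier spots (48 to 126 per array) were left out, spots of a probe were averaged, and log2 signals were scaled by each array's 75th percentile. Probes were tested if, in 1 or more groups of the fit, all arrays were well above background. Limma 3.58.1 in R 4.3.3 was fitted on 10 arrays of 3 groups (7 residual degrees of freedom) for the CPZ comparisons and on all 16 arrays (12 residual degrees of freedom) for regular diet, with Benjamini-Hochberg adjustment over all tested probes. A gene is given by its brightest tested probe. Where all untreated arrays were at background, the fold is a lower bound for the group mean and leaves out the spread between arrays. It is taken against the higher of the probe's own signal and the lowest signal well above background on each array. The script was tested on simulated data.

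The members, the marker lists and the other lists were chosen with earlier results of these data known. Named genes are the members, the 10 named genes most like their mean, the called genes of the programme list and its 3 largest and 3 smallest differences at 4 weeks, with Trem2, Tyrobp, Apoe, Lpl and Igf1 named in addition after their values were seen. Replicate numbers did not pair the untreated and CPZ samples, and the labels give no litter or day for the samples. Alternatives were another scaling or background correction, other filters, the slide or the replicate number as a block, other groups in the fit, any probe of a gene, the deposited table, the recorded assignment of arrays, the methods' test, each array left out, and after seeing the data the general microglia markers as scale and the loss of regular diet arrays 1 and 2. Mean spot signals were not used here, so normexp correction ran on median signals with an offset of 50. The number of arrays limits the precision.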

Additional observations from a re-analysis of the deposited data

Results flagged for a closer look

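Gpnmb at 4 weeks of CPZ had 1 array far from the others. Array 2 had a deposited log2 value of 1.74, and the gap to the nearest of the other 3 arrays was 0.866 of the group's whole range, above Dixon's critical value for 4 samples. Chance alone puts about 1 in 20 groups above that value, and 14 groups of members were examined. On the same array the other 6 members were also the lowest of their group, and the general microglia markers stood at 0.91 against 1.72 to 2.38. The part of these in the Gpnmb value was not tested. Without array 2 the log2 difference of Gpnmb from untreated was 4.64, and with it 3.92.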

How the results depend on the processing

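The number of arrays limits these results. At 2 weeks (2 members called), the count was 4 with the slide as a fixed or a random block, 1 with quantile normalization, with the filter on every array (4 members tested), with the other choice of groups in the fit or with the methods' test, and 0 with normexp correction or the recorded arrays. At 4 weeks (3 called), it was 5 and 6 with the slide as a fixed and a random block, 6 relative to the microglia and macrophage markers (17368 of 20404 genes called in all, 17320 of them lower), 1 with the other choice of groups or the methods' test, and 0 with the recorded arrays, with which 0 genes in all were called in any comparison. For regular diet against untreated (6 called), it was 3 with normexp correction or with the other choice of groups, 3 of the 4 members tested with the filter on every array, 1 with the methods' test and 0 with the recorded arrays. The methods' test called 15, 7 and 9 genes in all in these 3 comparisons. At 4 weeks, 2 members were called with quantile normalization or without the filter on dim probes, and 4 with median scaling. Leaving out 1 array gave 0 to 2 members at 2 weeks, 0 to 7 at 4 weeks and 1 to 6 on regular diet, and 0 in both other comparisons, which stayed at 0 throughout. The causes were not tested.

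The replicate numbers did not pair the untreated and CPZ samples. Same-numbered arrays had correlations of deviations from −0.842 to 0.201, and other pairs from −0.863 to 0.813. Regular diet arrays were not compared in this way. Untreated array 1 went with 4-week arrays 2 and 3 (0.784 and 0.813) and against 4-week arrays 1 and 4 (−0.842 and −0.863). Untreated array 1 and 4-week arrays 2 and 3 also had the lowest shares of probes well above background (57.3, 60.3 and 59.2%). The cause was not tested. With the replicate block, 0 members were called at 2 weeks, 0 at 4 weeks and 2 on regular diet against untreated, and over all genes 0, 0 and 19 were called.

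Some log2 differences changed sign, and the cause was not tested. With the recorded arrays, 4 weeks against untreated gave −0.28 for Cd52, −0.17 for Lgals3 and −0.24 for Itgax, and 4 against 2 weeks gave −1.21 for Cd52, −1.19 for Spp1, −1.07 for Lgals3, −2.68 for Itgax, −1.9996 for Cst7 and −0.97 for Gpnmb. Relative to the microglia and macrophage markers, Ch25h stood at −0.25 at 2 weeks, Lgals3 at −0.39 for 4 against 2 weeks, and Cd52 and Spp1 at −0.15 and −0.39 for regular diet against 4 weeks. In that comparison Spp1 was at −0.0018 with median scaling and −0.068 with the slide as a fixed block, and without regular diet arrays 1 and 2 the values were −0.52 for Cd52, −1.07 for Spp1, −0.50 for Cst7 and −0.80 for Ch25h. Leaving out 1 array, the ranges that crossed 0 were −0.18 to 0.62 for Lgals3 and −0.0012 to 1.40 for Gpnmb (4 against 2 weeks) and −0.64 to 0.88 for Spp1 (regular diet against 4 weeks). Of 923 values of single members under alternatives, 792 kept their direction and side of the threshold. Median scaling moved the median of all genes to −0.12 at 2 weeks, 0.26 for 4 against 2 weeks, −0.19 for regular diet against untreated and −0.27 against 4 weeks, and normexp moved it to −0.16 on regular diet against untreated.

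Counts over all genes moved as well. At 2 weeks they went from 43 (16 higher) to 23 (13 higher) with median scaling, 78 (14 higher) with normexp and 254 (123 higher) with the slide as a random block. At 4 weeks they went from 34 (20 higher) to 16 (10 higher) with quantile normalization and 393 (348 higher) with the slide as a fixed block. Regular diet against untreated went from 176 to 101 with median scaling and 36 with normexp, and against 4 weeks from 1 to 266 with quantile normalization and 1045 (611 higher) with median scaling.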
